A study of Mus musculus with 9 samples.

Results

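Macrophages are the resident phagocytes of the dorsal root ganglion (DRG), and 10 genes that mark them were followed through 9 RNAseq libraries of DRGs from E18.5 mouse embryos. The genes were Mrc1, Csf1r, Cd68, Aif1, Cx3cr1, C1qa, C1qb, C1qc, Cd163 and Lyve1, which are 10 of the 55247 genes counted. They were chosen by name, and selected on these same counts because they were high together in a single library, mutant library 2. The levels and fold changes of the mutants are therefore a description. The number of genes past the study's criterion in the mutant comparisons is printed beside that of all genes, but it uses the values that chose the genes and is no test of them. The choice was not made on the comparison of Isl1Cre/+ with WT, which is tested, although results of all 9 libraries were known when the genes were chosen. Of the 10 genes, 9 reached 100 counts in at least 1 library and entered the fits. Aif1 did not, and Cd163 did so only through WT library 3 and mutant library 2.

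The embryos were of 3 genotypes with 3 libraries each. WT embryos are known by that label alone, and whether any carried LoxP-flanked Meis2 is not given in the sources used here. Isl1Cre/+ embryos carried Cre in the Isl1 locus, so that Cre followed Isl1 expression and 1 copy of Isl1 was altered. Isl1Cre/+::Meis2LoxP/LoxP embryos, called mutants here, shared the Isl1Cre allele and also had an exon of both Meis2 copies flanked by LoxP sites. Isl1 is a transcription factor of sensory neurons whose expression is not limited to them, so the cells in which Cre acted are not known from these counts alone. Whether a library held ganglia of 1 embryo or of several is not given in the sources used here, and the p-values measure the spread between these libraries. Meis2 was at 94.9 to 109 cpm (counts scaled to a common library total) in WT, 89.1 to 102 in Isl1Cre/+ and 40.5 to 41.0 in the mutants, in the direction the labels give. The libraries held 23854607 to 29103444 counts. Y-linked genes were counted in WT libraries 1 and 2 and mutant library 1 and had at most 1 count in each of the other libraries, so embryo sex was unequal between genotypes. Mutant library 2 held the highest level of 18.3% of the 13200 tested genes.

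Tissue macrophages arise largely from embryonic progenitors and depend on signalling through the receptor CSF1R for survival. In nervous tissue they clear dying cells and debris during development, and fractalkine from neurons reaches them through the receptor CX3CR1. Macrophages along vessels and in coverings of nerves are known for scavenger and endocytic receptors such as MRC1, CD163 and LYVE1, whereas microglia-like cells are known for high CX3CR1 and little of these. The complement component C1q, which opsonizes debris and synapses, is made mainly by macrophages in many tissues. LYVE1 is also carried by lymphatic endothelium.

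The sequence before the start sites of these genes was read for the core of the site of PU.1, the ETS factor of myeloid cells, as GAGGAA on either strand. RefSeq promoters on GRCm38.p6 matched 7 of the 10 genes by symbol, and Csf1r, C1qa and Lyve1 were not matched. The letters GAGGAA were in the 250 bases before the start in 5 of these 7 genes, against 23.1% of 27025 promoters of that length. Mrc1 held them 3 times, and 3.57% of all promoters held them at least 2 times. Cd68, Aif1, C1qb and C1qc held them 1 time each, and they were not in the windows of Cx3cr1 and Cd163. A match is a description of letters and not a site of binding. Shown are the windows of an endocytic receptor with these letters (Mrc1) and of one without them (Cd163), of the lysosomal Cd68 and of a C1q chain (C1qb), all with a RefSeq start within 22 bases of the annotated gene start, 5′ to 3′ on the strand of the gene, with GAGGAA or its reverse complement in capitals. The windows are chr2:14229164-14229413 (plus) for Mrc1, chr11:69666171-69666420 (minus) for Cd68, chr4:136886201-136886450 (minus) for C1qb and chr6:124304401-124304650 (plus) for Cd163.
Mrc1: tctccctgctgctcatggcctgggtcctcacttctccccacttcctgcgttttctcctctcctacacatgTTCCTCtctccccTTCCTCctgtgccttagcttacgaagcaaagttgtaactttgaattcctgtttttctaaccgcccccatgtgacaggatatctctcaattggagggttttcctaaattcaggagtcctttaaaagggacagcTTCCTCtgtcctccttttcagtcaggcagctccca
Cd68: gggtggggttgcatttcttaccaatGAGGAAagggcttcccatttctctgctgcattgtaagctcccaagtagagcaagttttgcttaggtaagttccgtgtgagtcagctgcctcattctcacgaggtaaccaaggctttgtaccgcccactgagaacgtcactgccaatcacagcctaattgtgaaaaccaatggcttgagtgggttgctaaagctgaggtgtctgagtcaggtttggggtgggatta
C1qb: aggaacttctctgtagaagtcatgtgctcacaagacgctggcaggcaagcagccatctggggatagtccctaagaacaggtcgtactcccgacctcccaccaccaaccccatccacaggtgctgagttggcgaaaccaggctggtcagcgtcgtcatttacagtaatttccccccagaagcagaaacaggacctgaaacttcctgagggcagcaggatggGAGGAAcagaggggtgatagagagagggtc
Cd163: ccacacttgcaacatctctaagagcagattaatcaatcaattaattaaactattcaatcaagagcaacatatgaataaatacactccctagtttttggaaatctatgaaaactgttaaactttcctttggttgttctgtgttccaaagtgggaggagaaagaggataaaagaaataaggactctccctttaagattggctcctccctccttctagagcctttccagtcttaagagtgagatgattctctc

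The 10 genes lie on 8 chromosomes of GRCm38 (mm10), so that most share no neighbourhood. C1qb, C1qc and C1qa are the exception. They follow each other on the minus strand of chr4:136880129-136898803, a stretch of 18675 bases, with 3616 bases between the annotated ends of C1qb and C1qc and 2851 between those of C1qc and C1qa. Mrc1 is at chr2:14229392-14332057 on the plus strand, Cd163 at chr6:124304656-124330527 on the plus strand and Lyve1 at chr7:110850607-110863239 on the minus strand. Csf1r is at chr18:61100598-61132149 on the plus strand and Cx3cr1 at chr9:119901616-120069879 on the minus strand. Cd68 is at chr11:69664213-69666153 and Aif1 at chr17:35170991-35176068, both on the minus strand. Exons of Hmgxb3 lie opposite 15.12% of the exonic bases of Csf1r and exons of Gm33858 opposite 1.731% of those of Cx3cr1. The strand option of the counting is not given in the sources used here, so part of the Csf1r counts may belong to the partner gene. No exons of other genes overlapped those of the other 8 genes.

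Per kilobase of exon, where levels of different genes can be compared, C1qb was the most abundant of the 10 in WT ganglia, at 10.1 ± 2.62 cpm per kilobase (mean ± SD, n = 3). Lyve1 followed at 6.01 ± 0.671, C1qa at 5.89 ± 1.60, C1qc at 4.77 ± 0.676, Mrc1 at 4.40 ± 0.282 and Cd68 at 3.65 ± 0.407 cpm per kilobase. From Lyve1 down to Cd68 the WT libraries of each gene overlapped those of the next, so the order of neighbours was not resolved there, although every WT library of Lyve1 lay above those of C1qc, Mrc1 and Cd68. Csf1r came next at 2.89 ± 0.174, then Cx3cr1 at 2.39 ± 0.114, Aif1 at 1.19 ± 0.182 and Cd163 at 0.613 ± 0.141 cpm per kilobase, and the WT libraries of each of these 4 did not overlap those of its neighbours. The 3 chains of C1q kept nearly the same proportions in all 9 libraries. Of their sum per kilobase, C1qb made up 46.9% to 54.6%, C1qa 24.0% to 29.8% and C1qc 20.1% to 25.8%, and the share of C1qb in mutant library 2 was 50.1%, inside that range.

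The 10 genes were highest in mutant library 2 without exception, which is the pattern that chose them. Their summed level was 97.8 to 118 cpm in WT, 76.3 to 105 cpm in Isl1Cre/+, and 73.6, 183 and 110 cpm in mutant libraries 1, 2 and 3. In bulk RNA, more cells of a type and more RNA of these genes per cell cannot be told apart. Across the genes, mutant library 2 stood at a median of 1.75 times the median of the other 8 libraries, from 1.25 times for Cx3cr1 to 2.40 times for Mrc1, and over all tested genes this ratio had a median of 1.0. Just inside the highest place was C1qa, which in mutant library 2 was 1.02 times its next library, WT library 1. The low end also recurred, with 5 of the genes lowest in Isl1Cre/+ library 3 and 4 lowest in mutant library 1. Mutant libraries 1 and 2, of the same genotype, thus held the low and the high end of the range for Mrc1, Csf1r, Cd68 and Cx3cr1.

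**Figure D1:**
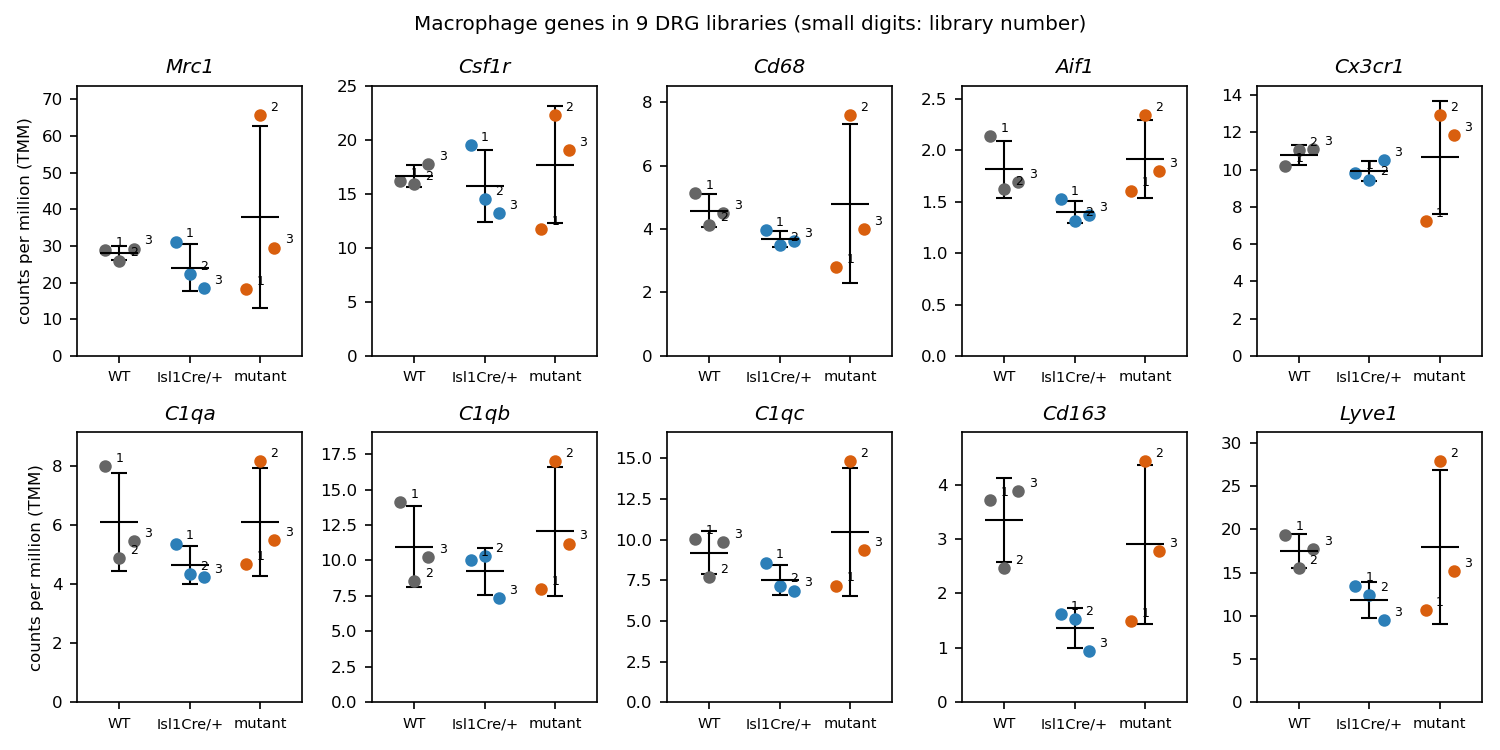
Level of each of the 10 macrophage genes in cpm after TMM normalization, in the 9 libraries (points, numbered by library) of WT, Isl1Cre/+ and mutant embryos, with mean ± SD over 3 libraries as lines. Mutant library 2 is the highest point of every panel, at 65.7 cpm for Mrc1, and mutant library 1 is the lowest point for Mrc1, Csf1r, Cd68 and Cx3cr1.

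Csf1r encodes the receptor for CSF1 and IL-34 and Cx3cr1 the fractalkine receptor. Csf1r was at 16.3, 15.9 and 17.8 cpm in WT libraries 1 to 3, at 19.5, 14.5 and 13.3 in Isl1Cre/+ and at 11.7, 22.4 and 19.1 in the mutants. The mutant libraries spanned the whole range of the other genotypes at both ends. Cx3cr1 was at 10.2, 11.1 and 11.1 cpm in WT, at 9.82, 9.46 and 10.5 in Isl1Cre/+ and at 7.22, 12.9 and 11.8 in the mutants. It was the steadiest of the genes within WT and within Isl1Cre/+, with a coefficient of variation of 4.77% in WT and 5.29% in Isl1Cre/+, where counting error alone gives 5.90% at its mean of 287 counts. In the mutants its coefficient of variation was 28.4%, and that of Csf1r was 30.6%.

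Mrc1, Cd163 and Lyve1 encode endocytic receptors, for mannosylated glycoproteins, for haptoglobin-haemoglobin complexes and for hyaluronan. Mrc1 was at 28.9, 26.0 and 29.3 cpm in WT, at 31.2, 22.3 and 18.6 in Isl1Cre/+ and at 18.1, 65.7 and 29.5 in the mutants. Mutant library 2 was 2.11 times the highest of the other libraries, and mutant library 3 lay close to WT library 3. It had 1738 counts in mutant library 2, against 485 and 723 in the other 2 mutant libraries, and counting error gives a coefficient of variation of 3.49% at its mean count.

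Cd163 was at 3.71, 2.46 and 3.87 cpm in WT, at 1.63, 1.53 and 0.948 in Isl1Cre/+ and at 1.5, 4.42 and 2.78 in the mutants. The Isl1Cre/+ libraries lay below every WT library, and mutant library 1 lay among them. These values rest on 27 to 117 counts a library, where counting error gives a coefficient of variation of 12% at the mean count. Lyve1 was at 19.4, 15.5 and 17.7 cpm in WT, at 13.5, 12.4 and 9.55 in Isl1Cre/+ and at 10.7, 27.9 and 15.2 in the mutants. Its Isl1Cre/+ libraries were again all below the WT libraries, as were mutant libraries 1 and 3.

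C1qa, C1qb and C1qc encode the 3 chains of C1q, the recognition component of the classical complement pathway. C1qa was at 8.02, 4.90 and 5.46 cpm in WT, at 5.39, 4.34 and 4.25 in Isl1Cre/+ and at 4.68, 8.17 and 5.51 in the mutants. C1qb was at 14.1, 8.56 and 10.2 cpm in WT, at 10.03, 10.3 and 7.34 in Isl1Cre/+ and at 8.003, 17.0 and 11.2 in the mutants. C1qc was at 10.1, 7.71 and 9.85 cpm in WT, at 8.60, 7.15 and 6.88 in Isl1Cre/+ and at 7.18, 14.8 and 9.39 in the mutants. All 3 genotypes overlapped for each chain. WT library 1 was also high for C1qa and C1qb, and this library had the lowest TMM factor, 0.9174.

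Cd68 encodes a lysosomal glycoprotein and Aif1 the actin-binding protein IBA1. Cd68 was at 5.13, 4.12 and 4.49 cpm in WT, at 3.96, 3.49 and 3.62 in Isl1Cre/+ and at 2.81, 7.60 and 4.002 in the mutants. The 3 Isl1Cre/+ libraries were below the 3 WT libraries, and the mutants surrounded both. Aif1 was counted 57, 46 and 49 times in WT, 45, 37 and 39 times in Isl1Cre/+ and 43, 62 and 44 times in the mutants. At these counts, where counting error gives a coefficient of variation of 14.6%, its excess in mutant library 2 over WT library 1 was within counting error.

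The response of mutant library 2 was uneven between the genes. Within a library, ratios of counts do not depend on its depth or scaling, and Cx3cr1 was taken as the denominator because it varied least within WT and within Isl1Cre/+, though in the mutants Aif1 varied less, with a coefficient of variation of 20.0%. For Mrc1 the ratio was 2.35 to 2.83 in WT, 1.77 to 3.18 in Isl1Cre/+ and 2.51, 5.08 and 2.49 in mutant libraries 1, 2 and 3. For Csf1r the ratio was 1.44 to 1.60 in WT, 1.26 to 1.99 in Isl1Cre/+ and 1.61 to 1.73 in the mutants, so mutant library 2 did not stand apart. For Lyve1 it was 2.15 in mutant library 2, above 0.91 to 1.90 in the other libraries. For C1qb it was 1.31 there, inside their range of 0.699 to 1.39. The ratio of Cd163 to Cx3cr1 was 0.223 to 0.364 in WT, 0.0903 to 0.166 in Isl1Cre/+ and 0.207 to 0.342 in the mutants. Isl1Cre/+ libraries lay below all others in this ratio, and mutant library 2 lay inside the range of WT. These ratios were chosen after the values were seen and carry no test.

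**Figure D2:**
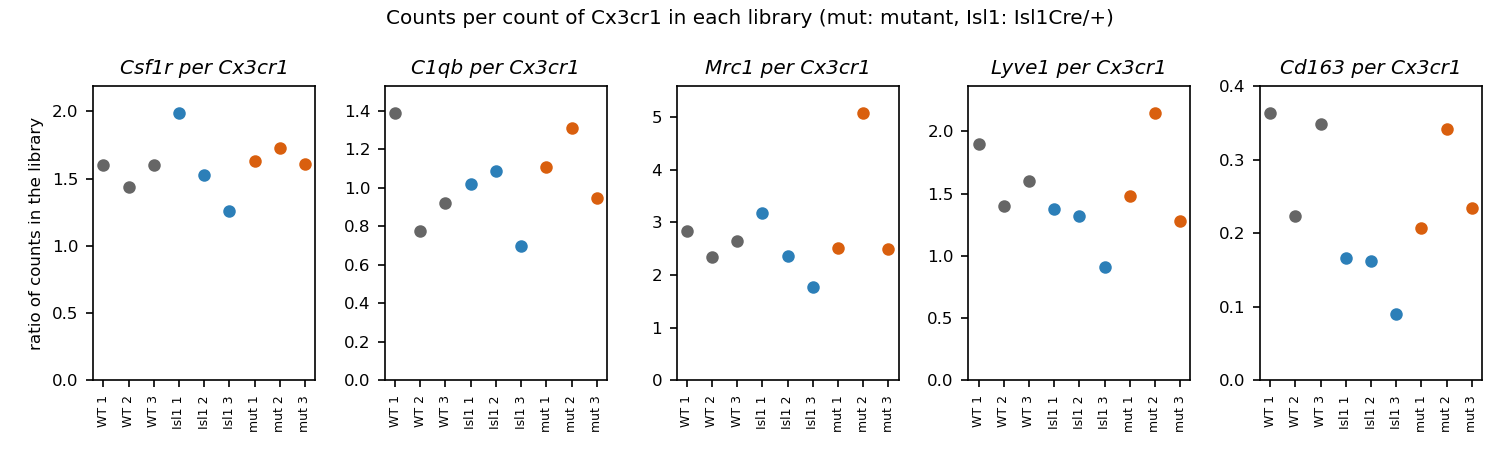
Counts of 5 macrophage genes per count of Cx3cr1 in each of the 9 libraries (grey WT, blue Isl1Cre/+, orange mutant), on linear axes from 0. The ratio for Mrc1 reaches 5.08 in mutant library 2, that for Csf1r stays between 1.26 and 1.99, and that for Cd163 is lowest in the 3 Isl1Cre/+ libraries.

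The mutants were compared with WT and with Isl1Cre/+, of which only Isl1Cre/+ shares the Isl1Cre allele. The comparison with WT thus joins that allele and the loss of Meis2. In the mutants against WT, 7 of the 9 genes fitted were higher, at a median log2 fold change of 0.07 against -0.01 over all tested genes, and the count was 8 with library size only, 4 with limma voom and 2 with the presence of Y-linked counts as covariate. As a description by edgeR's quasi-likelihood test, 0 of the 9 met the study's criterion of a 1.2-fold change and an unadjusted p under 0.05, which 0.318% of all tested genes met. The count at an unadjusted p alone was also 0, DESeq2 and limma voom gave 0, and 0 of the 9 had 3 mutant libraries that did not overlap the 3 WT libraries, against 2.76% of all tested genes. Mrc1 had a log2 fold change of 0.43 ± 0.410 (SE) and Cd163 of -0.21 ± 0.393, and the other 7 lay between -0.02 and 0.18. Without mutant library 2 all 9 were lower than in WT, at -0.22 ± 0.201 for Mrc1, -0.41 ± 0.228 for Cd68, -0.42 ± 0.179 for Lyve1 and -0.63 ± 0.350 for Cd163, with a median of -0.22. Without mutant library 1 all 9 were higher, with a median of 0.32, and 2 met the criterion, as did 0.909% of all tested genes in that setting. The sign of the difference from WT thus depended on whether mutant library 1 or 2 entered, while without mutant library 3 the count of higher genes stayed at 7. With all mutant libraries kept, the sign also varied with the tool and covariate, as given above. Without WT library 2 the count was 4.

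In the mutants against Isl1Cre/+, all 9 genes were higher, at a median log2 fold change of 0.39 against 0.00029 over all tested genes. Past the criterion stood Cd163, at 1.08 ± 0.425, as did 1.67% of all tested genes. In these 6 libraries Cd163 reached 100 counts only in mutant library 2, the library that chose it, so this is no evidence of a change. None of the 9 had groups that did not overlap, against 7.65% of all tested genes. Mrc1 followed at 0.65 ± 0.439, Lyve1 at 0.60 ± 0.329 and C1qc at 0.47 ± 0.254, and Cx3cr1 was at 0.10 ± 0.205. Without mutant library 2, 5 of the 9 were higher, the median was 0.06 and Cd163 was at 0.64 ± 0.376, below the criterion. Without mutant library 1, which leaves only libraries with no Y-linked counts above 1, 8 of the 9 met the criterion, as did 3.08% of all tested genes in that setting, and the median was 0.65. Adjusted over all tested genes, 0.00758% of them passed in the mutants against WT and 0.00758% in the mutants against Isl1Cre/+, which is Meis2 in each case, and 0 of the 9 genes passed in either. Nothing is read from these counts, since the mutant libraries chose the genes. The 3 comparisons share libraries pair by pair, so their values are not independent of each other.

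**Figure D3:**
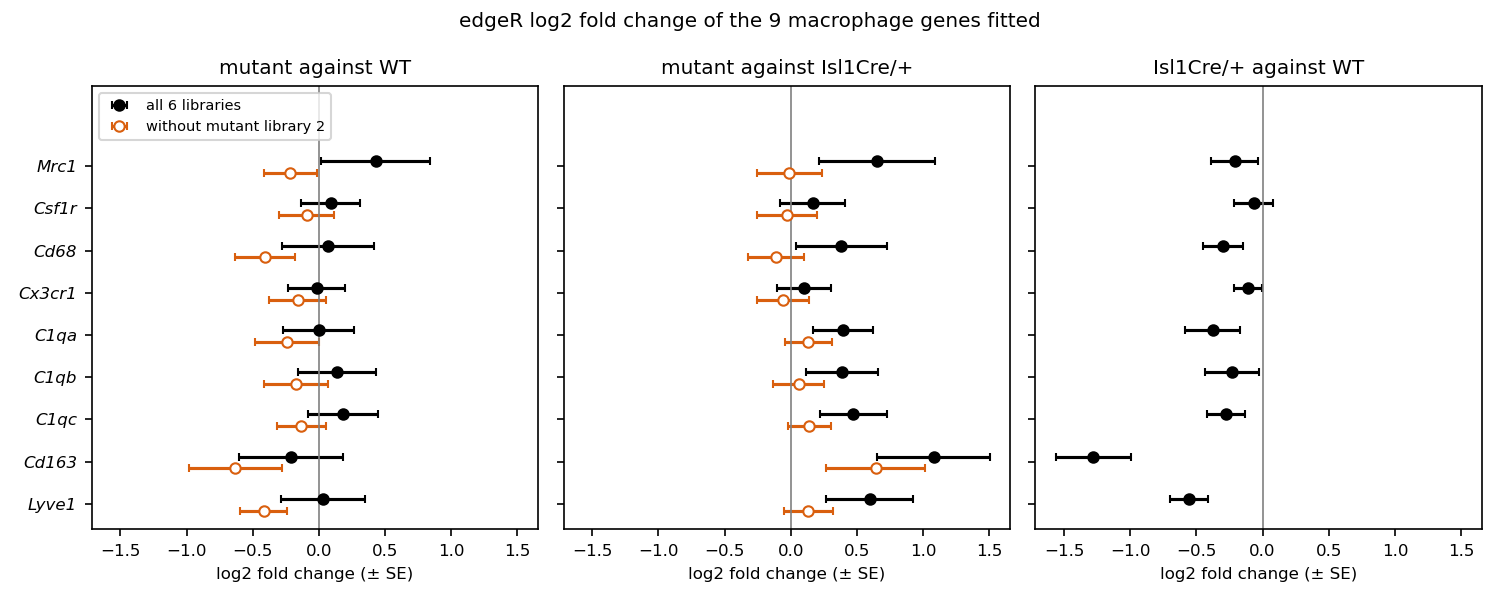
Log2 fold change (± SE) from edgeR for the 9 macrophage genes fitted, for mutant against WT, mutant against Isl1Cre/+ and Isl1Cre/+ against WT, with all libraries (filled) and without mutant library 2 (open). Without that library every open point of the comparison with WT lies below 0, and the open points of the comparison with Isl1Cre/+ lie near 0 except that of Cd163.

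The Isl1Cre allele itself was addressed by Isl1Cre/+ against WT, in which no mutant library takes part. Lyve1 was lower in Isl1Cre/+ by the study's criterion. Cd163 also met it as lower, but its call rests on the filter, as given below, and is not used as evidence. For Lyve1, which had at least 272 counts in each library of both genotypes, the mean fell from 17.5 ± 1.96 to 11.8 ± 2.05 cpm (SD, n = 3 per genotype), a log2 fold change of -0.55 ± 0.144, with an unadjusted p of 0.00567 and a Benjamini-Hochberg adjusted p of 1.0 in the quasi-likelihood test of edgeR. For Cd163 the means were 3.35 ± 0.769 and 1.37 ± 0.367 cpm, a log2 fold change of -1.28 ± 0.284, given without p because of the filter. Cd163 reached the minimum of 100 counts only in WT library 3, with 112, and in mutant library 2, which takes no part here, and its Isl1Cre/+ libraries had 48, 43 and 27 counts. Among these 2 genotypes it thus passed the filter through the genotype in which it was high. With no filter on low counts its log2 fold change was -1.26, with an adjusted p of 0.279 by edgeR, and with at least 100 counts asked of every library it was not fitted. Lower values were found in 3 of 3 Isl1Cre/+ libraries than in any WT library for both genes and also for Cd68, which missed the criterion at -0.30 ± 0.149 (edgeR unadjusted p of 0.0823). Cd163 aside, 1 of the other 8 genes met the criterion, as did 1.4% of all tested genes, and 2 of these 8 had genotypes without overlap, as did 6.08% of all tested genes.

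The other 6 genes had log2 fold changes from -0.38 ± 0.207 for C1qa to -0.07 ± 0.15 for Csf1r, and the median of the 9 was -0.28 against -0.0016 over all tested genes. All 9 were lower with each scaling, and Csf1r turned to 0.036 without Isl1Cre/+ library 3. After adjustment by Benjamini-Hochberg, edgeR called 0% of all tested genes, hence 0 of the 9. An unadjusted p under 0.05 was found for 236 genes. Lyve1 was among them, and so was Cd163, which is not read because of the filter. After adjustment, DESeq2 called 1 gene and limma voom 0, neither of them among the 9. When single libraries were left out, Lyve1 ranged from -0.66 to -0.43 with edgeR unadjusted p from 0.00521 to 0.0170, and the log2 fold change of Cd163, given without p because of the filter, from -1.45 to -1.08. WT library 3 is the only WT library without Y-linked counts and no Isl1Cre/+ library has them, so a fit with their presence as covariate sets the 3 Isl1Cre/+ libraries against that single library. It lay above all 3 for both genes, by log2 fold changes of -1.5 for Cd163 and -0.58 for Lyve1 in Isl1Cre/+, values with 1 library in an arm from which no test is drawn. With all 3 genotypes in 1 fit Lyve1 kept its log2 fold change, at -0.57, but no longer met the criterion (edgeR unadjusted p = 0.0903), and over all settings other than left-out libraries it lay between -0.58 and -0.52.

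Markers of some other tissues moved with these genes. Erythroid genes, led by haemoglobin chains, summed to 894 to 2130 cpm in WT, 343 to 979 in Isl1Cre/+, and 1210, 3960 and 2210 in mutant libraries 1, 2 and 3. All 7 erythroid genes tested were lower in Isl1Cre/+ than in WT by the same criterion, with edgeR, DESeq2 and limma voom. Skeletal muscle genes such as Acta1, Myh8 and Mylpf summed to 148 to 1090 cpm in WT, 76.2 to 204 in Isl1Cre/+ and 170, 2590 and 698 in the mutants. Mutant library 2 was 13.8 times the median of the other 8 libraries in this sum, all 10 muscle genes were highest in it, and all 10 were lower in Isl1Cre/+ than in WT by this criterion with edgeR and DESeq2, and 3 with limma voom. No gene of either list passed after adjustment with any of these tools. Their part in the levels of the macrophage genes was not tested.

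Fibroblast genes led by Col1a1, Col3a1 and Col1a2 summed to 3530 to 4980 cpm in WT, 3680 to 5360 in Isl1Cre/+ and 3140, 5840 and 4770 in the mutants, and genes of pericytes and smooth muscle to 294 to 317, 302 to 398, and 264, 434 and 329. Both lists were thus lowest in mutant library 1 and highest in mutant library 2, as were Csf1r and Mrc1. Of the 10 genes of pericytes and smooth muscle, 3 met the criterion as higher in the mutants against Isl1Cre/+ with edgeR, DESeq2 and limma voom. In Isl1Cre/+ against WT 1 met it as higher with each tool, and in the mutants against WT 1 with DESeq2 alone. None of them passed after adjustment, and 0 fibroblast genes met the criterion with any tool. Genes of blood endothelium were highest in Isl1Cre/+ library 1, at 525 cpm, and lay at 303 and 468 cpm in mutant libraries 1 and 2. All 10 had higher values in Isl1Cre/+ than in WT, the direction opposite to that of the macrophage genes, and 3 of the 10 met the criterion as higher with edgeR, DESeq2 and limma voom, none of them after adjustment. Glial genes varied little, from 1450 to 1740 cpm over all libraries. Genes of sensory neurons such as Prph and Tubb3 summed to 6490 cpm in mutant library 2, the lowest of the 9 libraries, against 6900 to 8810 in the other 8. Genes of dividing cells reached 410 cpm in mutant library 2 and 278 to 427 elsewhere, and cartilage and bone 161 against 98.8 to 197. Mutant library 2 was also above the other 8 libraries in the sums for lymphatic endothelium, at 211 cpm against 135 to 206, and for monocyte genes, at 143 cpm against 95.2 to 124. In it the sums for dendritic cells (38.5 cpm), spinal cord (31.3), osteoclasts (30.0) and injury and immediate early genes (231) lay inside the range of the other libraries, which was 37.8 to 39.9, 22.0 to 43.7, 15.6 to 45.1 and 228 to 285 cpm. Most of the dendritic sum there was Zbtb46 (25.6 cpm), and most of the spinal cord sum Aqp4 and Slc1a2 (16.8 and 11.6). Of the 10 dendritic genes, 3 were highest there, H2-Aa, H2-Ab1 and Cd74, at 30 to 56 counts. Slc32a1, Gad2 and Slc6a5 had 13 to 31 counts in WT and 0 to 4 in Isl1Cre/+, while Aqp4, Slc1a2, Olig1 and Olig2 overlapped. Genes named here below the count filter were not tested and were picked with their values in view.

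**Figure D4:**
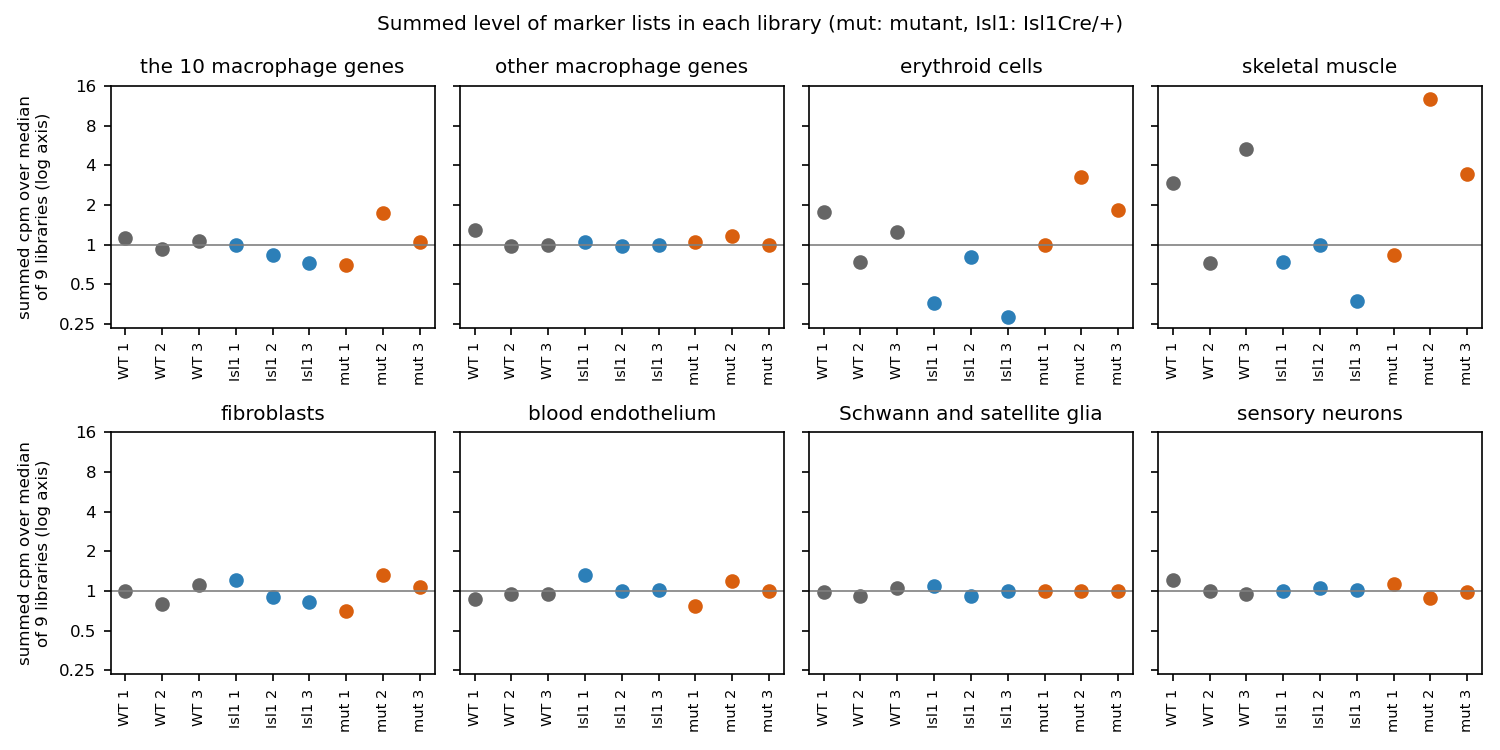
Summed cpm of marker lists in each library over the median of the 9 libraries, on a log axis, for the 10 macrophage genes, 50 other macrophage genes and 6 lists of other cell types (grey WT, blue Isl1Cre/+, orange mutant). Mutant library 2 is the highest for the sums of the 10 macrophage genes and of erythroid, muscle and fibroblast genes and the lowest for sensory neurons, the sum of the 50 other macrophage genes is highest in WT library 1, and erythroid genes are lowest in Isl1Cre/+ libraries 1 and 3.

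Many other macrophage genes were also highest in mutant library 2. Of 50 further genes listed for macrophages, 30 were tested. Of these, 6 reached 100 counts in mutant library 2 alone, so that the filter fixed their highest place. The other 24 stood in mutant library 2 at a median of 1.46 times the median of the other libraries. Among these 24, 15 were highest in that library, against 17.8% of the 13125 genes that reached 100 counts elsewhere, and 16 were at least 1.2 times the median of the others, against 14.3%. Among the 15 most abundant of them, the highest ratios were those of Pf4, a chemokine also made by megakaryocytes, at 2.56, and of F13a1, the coagulation factor XIII A chain, at 2.44. Fcer1g, the signalling chain of Fc receptors, was at 1.94, Tmem119 at 1.88, Fcgr3 at 1.78, Lyz2, lysozyme, at 1.66, Stab1, a scavenger receptor, at 1.47, Laptm5 at 1.45 and Ctss, cathepsin S, at 1.25. P2ry12, a purinergic receptor best known from microglia, was at 0.953, and Lgmn, Apoe, Ctsc and Runx1, which cells other than macrophages also express, lay between 0.715 and 1.1. Because Apoe made up 583 to 1000 cpm of it, the summed level of this list moved little, from 1130 to 1500 cpm, and was highest in WT library 1.

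**Figure D5:**
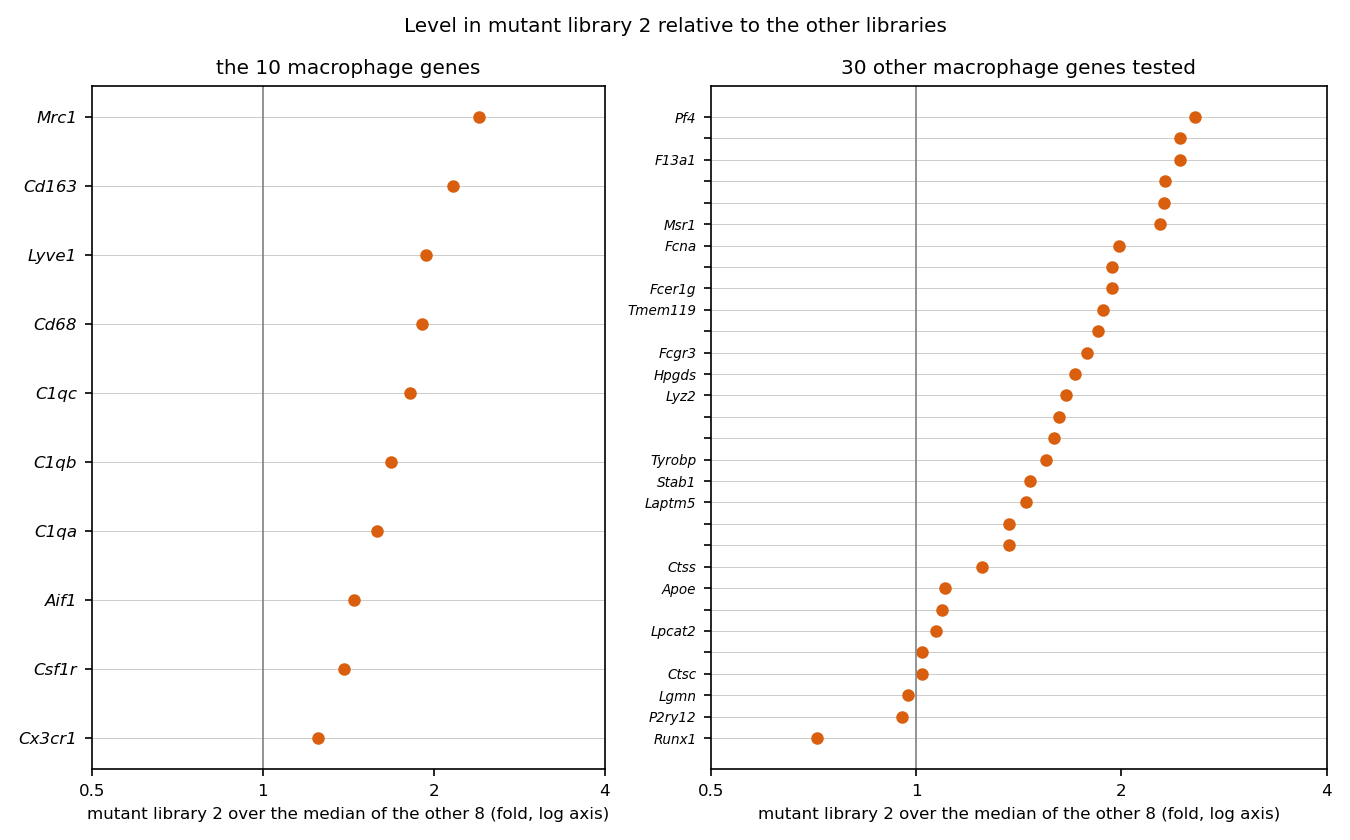
Level in mutant library 2 over the median of the other 8 libraries, on a log axis, for the 10 macrophage genes and for the 30 of 50 other macrophage genes that were tested, each sorted by this ratio, with the genes named in the text labelled. The 10 genes lie between 1.25 and 2.40, and the other macrophage genes between 0.715 for Runx1 and 2.56 for Pf4.

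By the study's criterion, 0 of the 30 other macrophage genes were called in the mutants against WT, by edgeR, DESeq2 and limma voom alike and at an unadjusted edgeR p under 0.05, and their median log2 fold change was 0.16. In the mutants against Isl1Cre/+ 2 were called, against 1.67% of all tested genes, Lyz2 and Hpgds, both higher, with a median of 0.37 over the 30, and DESeq2 called 3 and limma voom 1. Hpgds reached 100 counts in mutant library 2 alone, so its entry into this comparison rested on the genotype in which it was high. Without mutant library 2 these medians were -0.06 and 0.09. In Isl1Cre/+ against WT the median was -0.20, and 4 were called lower and 1 higher, against 1.4% of all tested genes called in either direction. F13a1 fell by 0.61 on the log2 scale (SE 0.256), Msr1, a scavenger receptor, by 0.61 (SE 0.241), Fcna, ficolin A, by 1.1 (SE 0.423) and Hpgds, a prostaglandin D synthase, by 0.49 (SE 0.192). Lpcat2 rose by 0.57 (SE 0.172). By the same criterion DESeq2 called 3 lower and 1 higher and limma voom 5 lower and 1 higher, and none of the 30 passed after adjustment by any of the 3 tools in any comparison. Msr1, Fcna, Hpgds and Lpcat2 are named because they met the criterion, outside the rule for names, and Msr1, Fcna and Hpgds reached 100 counts in mutant library 2 alone, which takes no part in this comparison. P2ry12 was at 0.16 ± 0.220 and Ctss at -0.01 ± 0.138 in this comparison, and Cx3cr1 at -0.11 ± 0.104.

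Ligands of these receptors were measured in the same libraries. Of 7 tested genes among ligands of CSF1R and CX3CR1 and chemoattractants, 0 were called in any of the 3 comparisons by edgeR, DESeq2 or limma voom and 0 had an unadjusted p under 0.05, with median log2 fold changes of 0.08, 0.09 and -0.03 for mutant against WT, mutant against Isl1Cre/+ and Isl1Cre/+ against WT. The 10 genes listed summed to 294 cpm in mutant library 2 and 220 to 276 elsewhere. Mif was at 112 to 167 cpm, Tgfb2 at 26.6 to 42.6 cpm and Cxcl12, a chemokine of mesenchymal cells, at 19.1 to 35.0 cpm in 8 libraries and 49.3 cpm in mutant library 2. Csf1 was at 1.45 and Il34 at 1.41 times the median of the other libraries in mutant library 2, and Cx3cl1, the neuronal fractalkine, at 1.0 times. These 3 ligands lie outside the rule for named genes.

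Of complement genes other than C1q, 6 were tested, and in each comparison 0 were called and 0 had an unadjusted p under 0.05 by edgeR, DESeq2 or limma voom. The 15 genes listed summed to 499 cpm in mutant library 2 and 291 to 372 elsewhere. Serping1, the C1 inhibitor, was at 51.2 to 85.0 cpm in 8 libraries and 120 cpm in mutant library 2, and Cd55 at 135 to 166 with 157 cpm in mutant library 2. All 14 molecules of clearance of dying cells were tested and 0 were called by any of these tools, while 1 had an unadjusted p under 0.05 in the mutants against Isl1Cre/+ by edgeR and by limma voom. Calr was at 584 to 897 cpm, Lrp1 at 110 to 189 and Cd47, the signal against engulfment, at 76.6 to 128, and mutant library 2 was inside each of these ranges.

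Transcripts of inflammation were scarce. Of 14 inflammatory cytokines and markers of activation, 9 had at most 10 counts in every library and 2 were tested, among them Il18 at 1.23 to 2.96 cpm with 3.93 in mutant library 2. Of the 10 interferon-induced genes, 7 were tested, of which 0 were called and 0 had an unadjusted p under 0.05 in any comparison by edgeR, DESeq2 or limma voom, and their sum was 87.6 cpm in mutant library 2 and 50.9 to 79.8 elsewhere. Of 10 monocyte genes, 5 had no more than 10 counts in every library, and most of the sum came from Vcan, at a mean of 91.3 cpm, which mesenchymal cells also express. Neutrophil genes, led by S100a9, summed to 22.0 cpm in WT library 1, 21.0 in mutant library 2 and 1.47 to 10.7 in the others. All 3 neutrophil genes tested met the criterion as higher in the mutants against Isl1Cre/+ with edgeR, DESeq2 and limma voom, and none after adjustment. In those 6 libraries S100a8 and S100a9 reached 100 counts only in mutant library 2 and Ngp in none, so this is no evidence of a change. Lymphocyte genes reached at most 7.07 cpm in sum, in mutant library 2. Mast cell genes without Kit, which sensory neurons also express, were led by Cpa3, at 4.08 cpm in mutant library 2 and 1.26 to 3.67 elsewhere. Cpa3 met the criterion as lower in Isl1Cre/+ than in WT, at -0.67 ± 0.242, with all 3 tools and not after adjustment. It also met it as higher in the mutants than in Isl1Cre/+, at 0.995 ± 0.290, again with all 3 tools and not after adjustment. Cpa3 reached 100 counts in mutant library 2 alone, so its call in the mutants is no evidence of a change. Of the 8 genes listed for lymphatic endothelium, which also carries LYVE1, 6 were in mutant library 2 at 1.11 to 1.95 times the median of the other libraries, among them Pdpn at 1.95 and Prox1, with 27 to 58 counts a library, at 1.56. Flt4, the receptor VEGFR3, was at 0.762 times, and Ccl21a had at most 2 counts a library. Their part in the level of Lyve1, which was at 1.94 times, was not tested. Prox1, Flt4 and Ccl21a were picked with their values in view.

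The genes whose profile over the 9 libraries was most like the mean profile of the 10 included macrophage genes and genes of other tissues. Likeness was Pearson's r between log2 levels and the mean of the standardized log2 levels of the 10 genes, over 9 libraries that share their depth and composition, as a description. Of the 15 nearest of the tested genes, r from 0.954 to 0.990, 3 were on the list of other macrophage genes, which holds 0.227% of all tested genes: F13a1 at 0.979, Tyrobp, the adaptor DAP12, at 0.966, and Msr1 at 0.960. The profile comes from genes chosen for being high in mutant library 2, so this share is no test of them. The nearest of all was Chrnb1, a subunit of the muscle acetylcholine receptor, at 0.990, with 4.12 cpm in mutant library 2 and 1.42 to 2.66 elsewhere. Tnni1, slow skeletal troponin I, at 0.963, and Tmod4, tropomodulin of muscle, at 0.957, were also among them. So were the transcription factors Tbx15 at 0.962 and Foxd1 at 0.957, Cavin2 of caveolae at 0.961, C1qtnf3 at 0.955, Copz2 at 0.960, Igdcc4 at 0.965, S100a16 at 0.964, Grtp1 at 0.968 and Zfyve21 at 0.954. Chrnb1, Msr1 and Tmod4 passed the filter on counts through mutant library 2 alone, the library for which the genes of the profile were chosen. The filter thus favoured their likeness to the profile, and their places among the 15 are a description only. Without mutant library 2 the r of the 15 with the profile of the 10 genes was 0.896 to 0.976. Among the 10 themselves, r with the mean of the other 9 was highest for C1qc and Lyve1, at 0.971 each, and lowest for Cx3cr1, at 0.684, and without mutant library 2 it was 0.944, 0.938 and 0.537.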

How the data were processed

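RNA of E18.5 DRGs was sequenced in 9 libraries of 3 genotypes, grouped by their labels. The authors made the deposited counts with poly(A) selection, libraries with unique molecular identifiers, alignment to mm10 with STAR 2.7.10, removal of duplicates and HTSeq 0.6. The annotation release, the strand option and litters are not given in the sources used here. The deposited log2 fold changes and log2 mean expression, p-values and scores are the results of the authors' limma comparisons and were not used.

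Positions, exonic lengths and overlaps came from GENCODE M21 (54855 of 55247 identifiers identical), which also named 15 symbols stored as dates. Genes reaching 100 counts in any library (13200) were fitted, each pair of genotypes alone, with TMM and the two-sided quasi-likelihood test of edgeR 4.0.16 in R 4.3.3, with Benjamini-Hochberg adjustment over all of them. The procedure was checked on simulated data. Levels are cpm with TMM, per kilobase where said, and likeness used log2 of cpm + 0.5. The chi-square of counts between libraries of a genotype was 15.7 to 89.1 per degree of freedom, and all libraries were kept as separate samples. SEs are the log2 fold change over the root of the F statistic. Alternatives were other scalings and filters, DESeq2 1.42.0, limma 3.58.1 voom, all genotypes in 1 fit, a replicate block, each library left out and, added after seeing the data, presence of Y-linked counts (over 100 in a library) as covariate. The genes and lists were chosen with earlier results of these data known. Named are the 10 genes, the 15 most abundant of the other macrophage genes, the 3 most abundant of every other list, the 15 nearest profiles, Meis2 and Isl1, and some of these are given only within their list or are not reported here.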

Additional observations from a re-analysis of the deposited data

How the results depend on the processing

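The 3 counts below are, in this order, all genes, the 9 macrophage genes and the other macrophage genes that met the criterion. In mutants against WT they were 42, 0 and 0. Without a filter 408 genes were called, and single libraries left out gave 40 to 132, 0 to 2 and 0 to 2. In mutants against Isl1Cre/+ they were 221, 1 and 2. Changes were 1 other macrophage gene with library size only, 1028, 4 and 16 without a filter, 139 and 0 with at least 100 counts in every library, 0 and 1 macrophage genes with limma voom, 400, 8 and 16 with the presence of Y-linked counts as covariate, which there amounts to leaving out mutant library 1, and 167 to 407, 0 to 8 and 0 to 16 with single libraries left out, the high end without mutant library 1. In Isl1Cre/+ against WT they were 185, 2 and 5, and the 2 include Cd163, whose call rests on the filter. Changes were 2 other macrophage genes with library size only, 845 and 9 without a filter, 104, 1 and 2 with at least 100 counts in every library, 1 and 1 macrophage genes with all genotypes in 1 fit, 2 with the covariate, which there sets the Isl1Cre/+ libraries against WT library 3 alone, and 102 to 340, 2 to 3 and 1 to 6 with single libraries left out. Csf1r, at -0.07, ranged from -0.25 to 0.036 with single libraries left out, the high end without Isl1Cre/+ library 3. The causes were not tested.

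Same-numbered libraries correlated between -0.569 and 0.385 in their deviations, with 4 of 9 pairs over 0.1. The closest library had the same number in 6 of 18 choices, so no pairing by number was seen in these values. They cannot tell whether same-numbered libraries shared a litter. The replicate block gave 31, 177 and 236 genes for the 3 comparisons, 0, 0 and 3 of the 9 macrophage genes, and 0, 1 and 3 other macrophage genes.

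Counting error limits Aif1 and Cd163, and only counting error is covered by the values given for it.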
